A study of Mus musculus with 14 samples.

Results

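The change in messenger RNA between the germinal vesicle (GV) stage and ovulation was measured in wild-type (WT) mouse oocytes, over the genes that both deposited read count tables list, matched on gene identifier. These were 16196 of the 18507 genes in either table, and 12424 of them had enough reads to be tested. The 7 WT libraries of the 14 in the series were used: 4 of GV oocytes and 3 of ovulated oocytes. All WT oocytes were Mff fl/fl without Cre, so they carry the floxed allele of Mff, the mitochondrial fission factor. The other 7 libraries, 4 GV and 3 ovulated, were conditional knockout (CKO) oocytes, Mff fl/fl with Gdf9-Cre, which acts in oocytes from early follicles on, and they were used only to test whether a gene's course differed between genotypes. The sources used here give no age, no strain and no number of oocytes or animals per library. The p-values therefore measure the spread among these libraries alone, which may be technical. Each stage is 1 deposited table, so stage and table cannot be told apart.

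A GV oocyte is fully grown, arrested in prophase of the first meiotic division, and nearly silent in transcription, so it lives on mRNA stored during growth. When meiosis resumes, a large part of that store is deadenylated and destroyed, while other stored mRNAs gain a longer poly(A) tail and are translated. The cytoplasmic polyadenylation element (CPE), a U-rich site near the end of the 3′ UTR that is bound by CPEB proteins, marks many mRNAs of the second kind. Ovulated oocytes are normally arrested at metaphase of the second division. The libraries were made with SMART-SeqII, which primes cDNA from the poly(A) tail, so a longer tail and more RNA cannot be told apart. Levels are given as CPM, counts scaled to a common library total and by a further factor for each library (TMM). That factor was 0.736 to 1.24 in GV and 1.12 to 1.26 in ovulated libraries, so CPM are not plain shares of a library. Marker sums are on library totals alone. All these levels are relative, so a fall of the total RNA per oocyte cannot be seen. Nor can fewer cells of a type be told apart from less RNA per cell.

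The sites that the later results turn on are shown here, as 30 bases of the annotated 3′ UTR written 5′ to 3′ (GENCODE M21 on GRCm38, the assembly that mm10 names). The CPE searched was TTTTAT or TTTTAAT on the sense strand. Capitals mark a CPE or a polyadenylation hexamer, AATAAA or ATTAAA. In 2 of the first 4 sequences the CPE and the hexamer share bases. The first 3 mRNAs rose after ovulation, Gdf9 did not pass the test, and the last 3, which hold no CPE in the last 100 bases, fell. The set shows both kinds of 3′ end, not how often each went with a rise: other genes with a CPE fell.
Wtap, chr17:12966796-12966825, minus strand: aaacctaAATAAAcatTTTTATtacgactc
Dcp1a, chr14:30527021-30527050, plus strand: TTTTAATAAAatttcaaaaccaagttttag
Lsm14a, chr7:34344658-34344687, minus strand: TTTTAATAAAggccatggAATAAAgagatc
Gdf9, chr11:53437866-53437895, plus strand: TTTTATgtgacggaagAATAAActgttgat
Upp1, chr11:9136135-9136164, plus strand: aactcctgggcAATAAAtctattttttcat
Psmb7, chr2:38588036-38588065, minus strand: aAATAAATAAATAAAaagacaaaaaactta
Figla, chr6:86020967-86020996, plus strand: ataATTAAAatgagatgatatgggaaagga

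Totals of the 7 libraries were 26575593 to 28847424 estimated reads. The first principal component held 83.8% of the variance and separated the stages. GV WT 2 stood apart from the other GV libraries: its 100 most abundant genes took 38.1% of reads, against 48.5% to 51.1% in the other 3 and 29.5% to 35.4% in the ovulated libraries. It lay nearest to the ovulated group for many genes. Where leaving it out changed the call or the sign of a described gene, this is given below. Summed markers of oocytes were 29083 to 35462 CPM of library totals in GV and 20474 to 25413 CPM in ovulated libraries. Granulosa and cumulus cells surround the oocyte in the follicle, and their markers summed to 447 to 611 CPM in GV and 970 to 1246 CPM in ovulated libraries (exact permutation test, two-sided, p = 0.0286, the smallest that 4 against 3 libraries can give). Of the 15 such markers in both tables, Serpine2 and Cyp19a1 made up nearly all of the sum. Without them the range was 10.4 to 33.3 CPM in GV and 24.95 to 36.82 CPM in ovulated libraries, and Ptx3 was at 0 in all 7. Tested gene by gene, 10 of these markers had enough reads, and 4 were called higher and 4 lower. The 4 higher were Serpine2, Cyp19a1, Kitl and Col4a1, of which Kitl and Col4a1 had GV means of 2.46 and 1.155 CPM. Cyp19a1 lost its call without GV WT 1, GV WT 4 or ovulated WT 1 (adjusted p = 0.0565 to 0.0606). It also lost it at a mean of at least 10 CPM (adjusted p = 0.105) and in a fit on all 14 libraries (adjusted p = 0.0528). Fshr, Inhba, Bex4 and Krt8 were lower, each from a GV mean of 2.11 CPM or less. Markers of theca and stroma summed to 9.00 to 23.5 CPM in GV and 6.01 to 8.69 CPM in ovulated libraries, and those of blood, immune and endothelial cells to 22.0 to 43.4 and 83.7 to 139 CPM, or 1.15 to 6.26 and 1.62 to 3.92 CPM without Pecam1 and Kdr. The part of RNA from other cells in the results below was not tested.

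**Figure D1:**
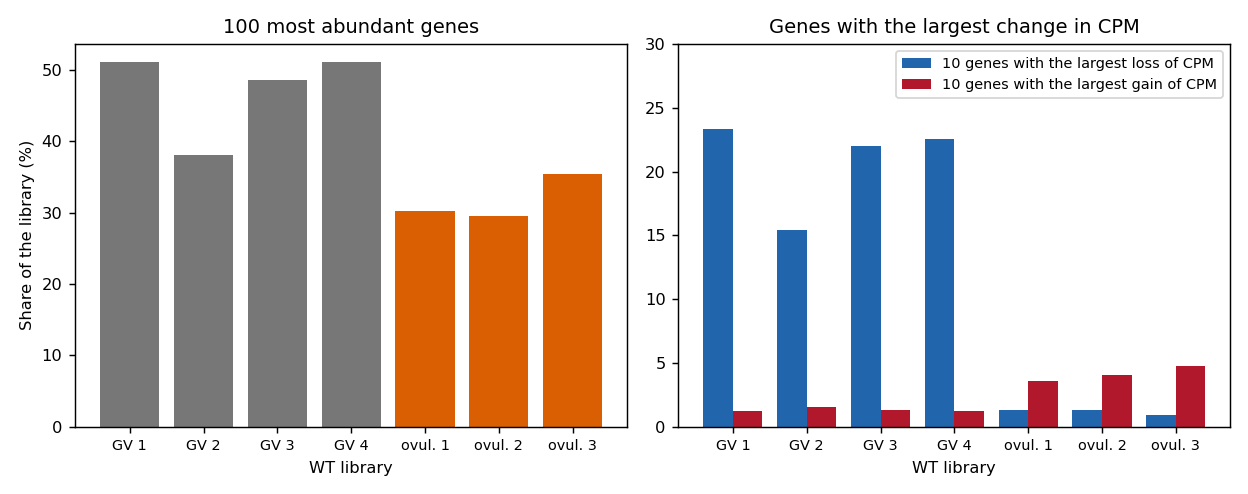
Share of each WT library (%) taken by its 100 most abundant genes (left; grey, GV; orange, ovulated) and by the 10 genes with the largest loss and the 10 with the largest gain of CPM (right). The 10 genes with the largest loss took 15.5% to 23.4% of each GV library and 0.944% to 1.32% of each ovulated library.

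Mff itself, the receptor that recruits DRP1 to mitochondria for fission (Entrez gene 75734, chromosome 1, 82724890 to 82752390 in GRCm38.p6), measured 876, 450.1, 613 and 893 CPM in the GV libraries and 288, 287 and 647 CPM in the ovulated libraries. Ovulated WT 3 lay within the GV range and the other two ovulated libraries below it. The difference did not pass the test (log2 fold change -0.80, SE 0.35, adjusted p = 0.0603), and Mff passed it without GV WT 2 (log2 fold change -0.94, adjusted p = 0.0131) or without ovulated WT 3 (-1.22, adjusted p = 0.00761). Without any other single library it did not pass (adjusted p = 0.0751 to 0.218). Mff was also called lower with DESeq2 (-0.77, adjusted p = 0.0404), at a mean of at least 10 CPM (-1.01, adjusted p = 0.0207) and with voom quality weights (-1.30, adjusted p = 0.0001). With the length trend removed its fold change was above 0 but did not pass (0.42, adjusted p = 0.189). Its call and its sign varied with the fit, so no direction is given. All 7 libraries hold Mff reads, and totals per gene do not show whether they cover the floxed part.

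Most of the transcriptome moved. Of 12424 tested genes, 8824 (71%) were called at an adjusted p under 0.05: 4130 (33.2%) higher and 4694 (37.8%) lower in ovulated oocytes. The groups did not overlap in 70.9% of tested genes and in 8380 of the called ones. Falls were larger than rises: 2863 called genes were lower by a log2 fold of 2 or more against 932 higher, and 925 were lower by 4 or more against 5 higher. The fold change of the median gene was -0.13 on the log2 scale. Higher calls outnumbered lower ones when libraries were scaled by their totals alone, which shifted the median gene by 0.41. The same held on FPKM and when the trend of each library with transcript length was removed. The median then lay 0.42 higher over 9327 genes and 0.40 higher over 10503 genes. These sets of genes differ from the 12424, so the shifts are not those of scaling alone. On FPKM without a filter, over 16077 genes, the shift was 0.14, and a filter at 10 CPM alone gave 0.20. With library totals 4689 genes were higher and 3723 lower. With the length trend removed 4401 were higher and 3449 lower, and 540 of the genes called above had the opposite sign.

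**Figure D2:**
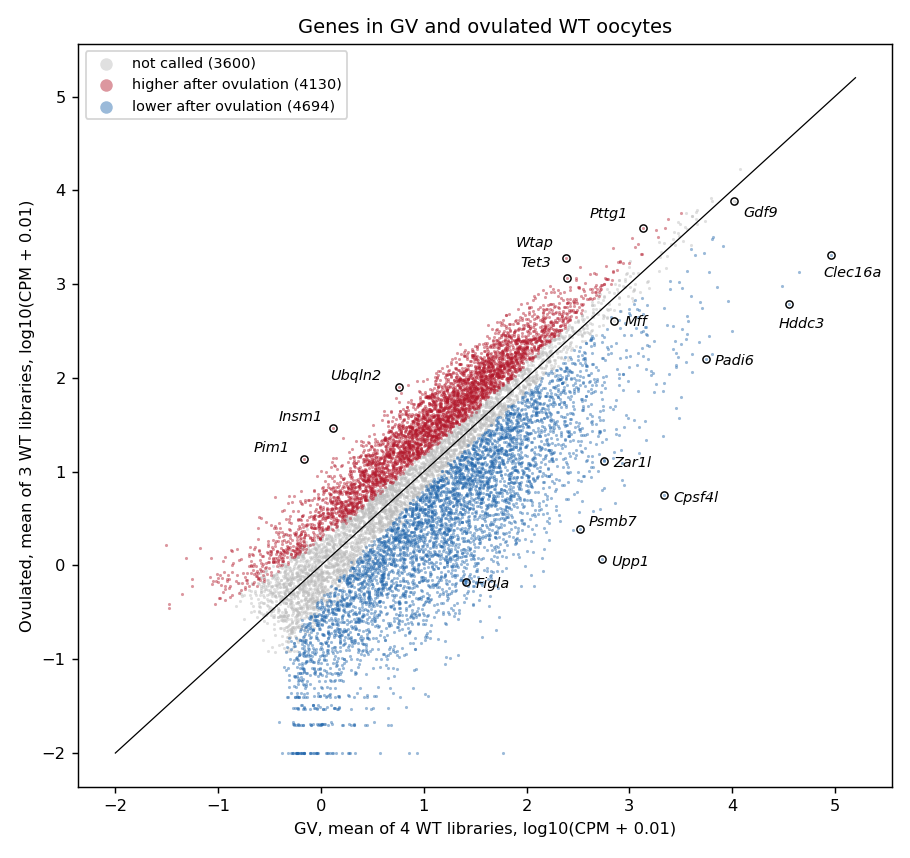
Mean level of each tested gene in 4 GV (x axis) and 3 ovulated (y axis) WT libraries, both as log10(CPM + 0.01); red genes were called higher after ovulation (4130), blue genes lower (4694) and grey genes neither. The cloud of lower genes reaches much farther from the diagonal than the cloud of higher genes, with Upp1, Cpsf4l and Psmb7 among the farthest.

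The loss of reads was concentrated in a few very abundant GV transcripts. Clec16a, which encodes a regulator of mitophagy and endosomal traffic (Entrez gene 74374, chromosome 16, 10545309 to 10744878), took 8.70%, 5.27%, 8.07% and 8.39% of the reads of the 4 GV libraries. In the 3 ovulated libraries it took 0.251%, 0.301% and 0.184%, a fall by far more than the spread (log2 fold change -5.49, SE 0.50, adjusted p = 3.16e-06). Per transcript length it also ranked 1 in GV oocytes, at 22700.5 ± 4704 FPKM, against 724 ± 172 FPKM after ovulation (SD, n = 4 and n = 3).

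The same course was seen for Hexdc, a hexosaminidase (log2 fold change -5.06), Hddc3, a phosphohydrolase (-5.90), Dnajc14, a DnaJ chaperone (-5.00), Ccdc82 (-5.00), Spopl, a substrate adaptor of cullin-3 ligases (-5.16), and Iars2, the mitochondrial isoleucyl-tRNA synthetase (-4.43). Each of these was lowest, among the GV libraries, in GV WT 2, and all 4 GV libraries lay above all 3 ovulated ones. A single value in brackets after a gene is its log2 fold change throughout. Ubb, a polyubiquitin gene, fell from 9136 ± 2151 CPM in GV to 667 ± 77.1 CPM in ovulated oocytes (log2 fold change -3.77, SE 0.32, adjusted p = 2.07e-06). Nlrp14, a maternal NLR protein (-2.92), and Ldhb, a lactate dehydrogenase subunit (-1.69), completed the 10 genes with the largest loss of CPM. With the length trend removed Ldhb was at -0.12 and did not pass (adjusted p = 0.68). Whole-gene reads do not show which part of a locus they came from, so for these genes the transcript isoform is not known here.

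The steepest falls by ratio were of genes that were nearly absent from the reads of ovulated libraries. Upp1, uridine phosphorylase, which breaks uridine down to uracil (Entrez gene 22271, chromosome 11, 9118008 to 9136170), measured 613, 347, 596 and 629 CPM in the GV libraries and 1.28, 0.548 and 1.64 CPM in the ovulated libraries. The stages lay far apart (log2 fold change -8.88, SE 0.48, adjusted p = 1.17e-07), on 44, 18 and 49 reads in the ovulated libraries. Cpsf4l, a paralog of a cleavage and polyadenylation factor, fell from 2189 ± 899 CPM in GV to 5.65 ± 0.135 CPM in ovulated oocytes (log2 fold change -8.60, SE 0.50, adjusted p = 1.78e-07). Ptgis, prostacyclin synthase, measured 43.6, 21.1, 38.2 and 44.0 CPM in the GV libraries and 0.175, 0.183 and 0.134 CPM in the ovulated libraries (log2 fold change -7.76, SE 0.42, adjusted p = 1.17e-07).

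Ppil3, a cyclophilin, was even among GV libraries, at 124, 121, 117 and 109.9 CPM, and read 0.583, 0.183 and 1.01 CPM after ovulation (-7.65). The lipid enzyme Agpat2 (-7.59), the Rab GTPase-activating protein Tbc1d25 (-7.65), Mroh3 (-7.55) and the sorting nexin Snx15 (-7.54) fell as steeply. Tuba1a, Iqcf1, Acy3 and Best2 also belonged to the 12 largest falls, but 4 or fewer reads in all of the ovulated libraries together stand behind each, so no fold is given.

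Rises were smaller and started from low levels. Insm1, a zinc finger transcription factor of neuroendocrine cells, measured 0.565, 2.54, 1.74 and 0.337 CPM in the GV libraries and 28.1, 44.7 and 14.2 CPM in the ovulated libraries (log2 fold change 4.44, SE 0.59, adjusted p = 5.18e-05). Pim1, a serine/threonine kinase, went from 0.377, 1.72, 0.339 and 0.241 CPM in the GV libraries to 15.5, 18.9 and 6.64 CPM in the ovulated ones (log2 fold change 4.26, SE 0.61, adjusted p = 8.58e-05). Ubqln2, a ubiquilin that shuttles ubiquitinated proteins to the proteasome, rose from 5.69 ± 3.69 CPM in GV to 79.6 ± 35.4 CPM in ovulated oocytes (log2 fold change 3.79, SE 0.46, adjusted p = 2.39e-05). For Pim1 and Ubqln2, GV WT 2 was the GV library nearest to the ovulated group, and the groups did not overlap.

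The other large rises were of Ddit4, a stress-induced inhibitor of mTORC1 (3.94), Rpia of the pentose phosphate pathway (3.74), the ion exchanger Slc24a5 (3.58), Heca (3.51), Tmed9 of the early secretory pathway (3.48), Clasp2, which stabilises microtubule ends (3.45), Zxdb (3.43), the transcription factor Mybl1 (3.42) and the homeobox gene Lbx1 (3.40). Tmed9 was even within GV, at 5.65, 4.57, 5.34 and 6.12 CPM, and read 83.7, 60.6 and 37.5 CPM after ovulation.

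**Figure D3:**
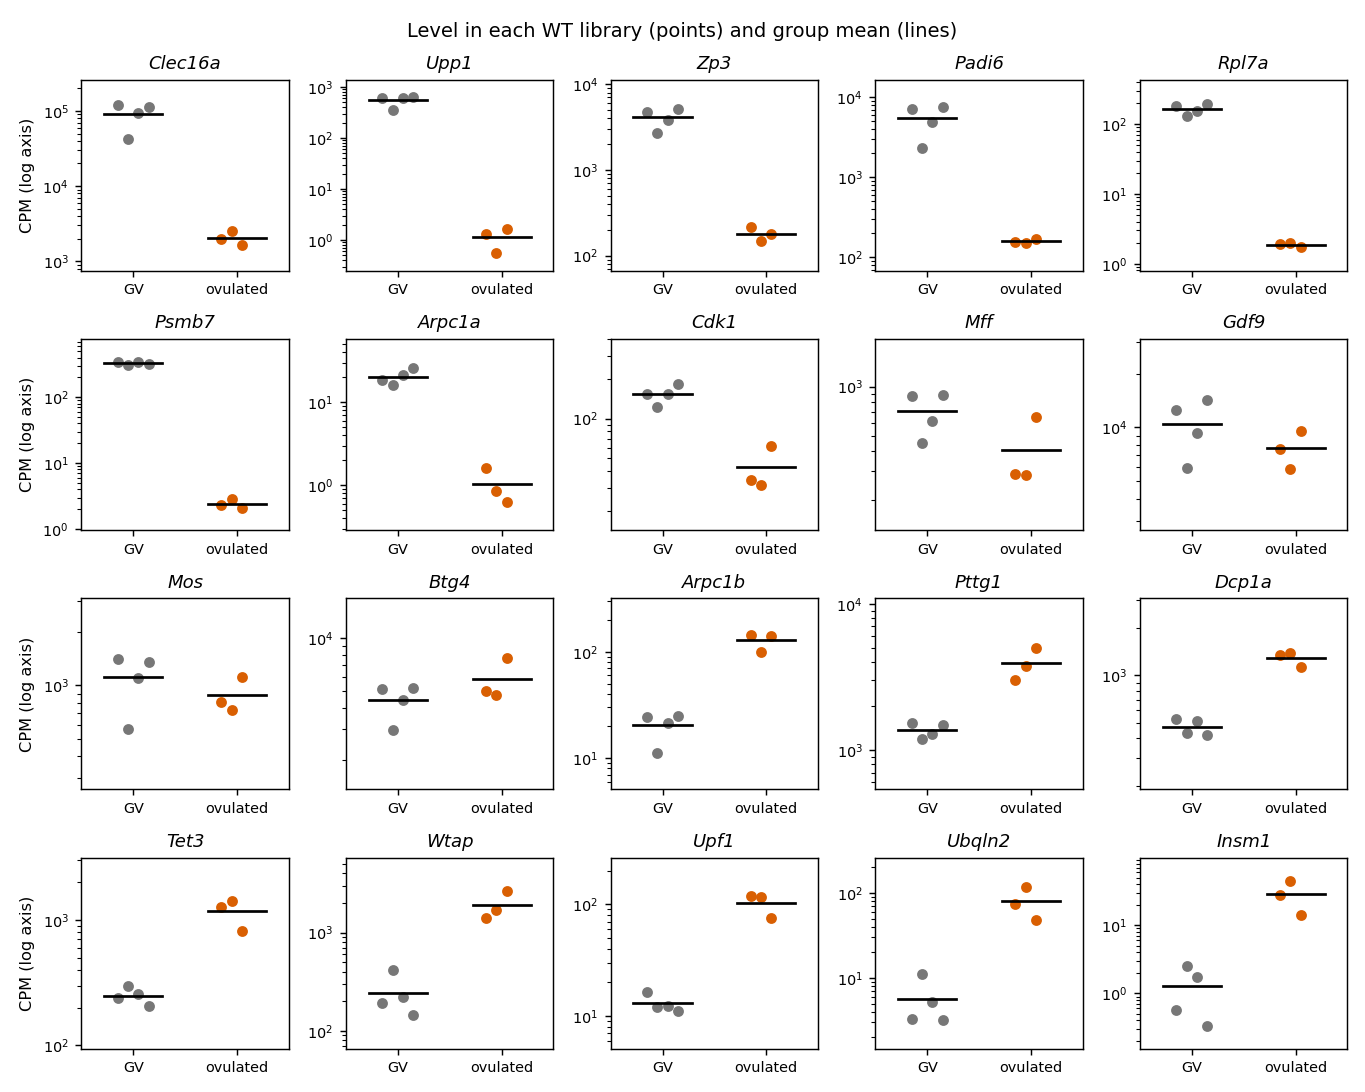
Level of 20 genes in each WT library (points, CPM on a log axis; grey, GV; orange, ovulated) with the group mean (lines). The panels run from genes that fell, such as Clec16a and Upp1, through Gdf9, Mos and Btg4, whose groups overlap, to genes that rose, such as Wtap and Insm1.

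The largest gains in CPM went to genes that were already abundant. Pttg1, securin, the inhibitor of separase that is destroyed at anaphase, measured 1520.2, 1183, 1289 and 1494 CPM in the GV libraries and 3013, 3782 and 4950.0 CPM in the ovulated libraries (log2 fold change 1.51, SE 0.25, adjusted p = 0.000255). Wtap, a subunit of the mRNA m6A methyltransferase complex (Entrez gene 60532, chromosome 17, 12966799 to 12992543), measured 191, 415, 222 and 144 CPM in the GV libraries and 1404, 1684 and 2615 CPM in the ovulated libraries (log2 fold change 2.97, SE 0.37, adjusted p = 3.25e-05). All 3 ovulated libraries lay above the highest GV library, which was GV WT 2.

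Sub1, a transcription coactivator, rose from 1057 ± 94.5 CPM in GV to 3112 ± 597 CPM in ovulated oocytes (1.56). Paip1, which binds the poly(A)-binding protein and aids translation, rose from 695 ± 98.6 CPM in GV to 2405 ± 103 CPM in ovulated oocytes (1.79), with ovulated libraries within a narrow range of 2289, 2444 and 2483 CPM. Mphosph6, an exosome cofactor (0.86), and Ccdc69, a regulator of the spindle midzone (1.12), rose less. Omt2a (1.07), Omt2b (1.06) and Oog3 (0.85) were also among the 10 largest gains, but have near-identical copies among which reads could be split, so their own levels are uncertain.

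Several of the most abundant mRNAs per length did not pass the test. H1f8, the oocyte linker histone, measured 5984 ± 1185 FPKM in GV and 9902 ± 2241 FPKM in ovulated oocytes (log2 fold change 0.26 on CPM, adjusted p = 0.529). Gdf9, the growth factor through which oocytes direct cumulus cells, measured 12567, 5903, 9368 and 14200.3 CPM in the GV libraries and 7591, 5864 and 9571 CPM in the ovulated libraries (log2 fold change -0.45, SE 0.35, adjusted p = 0.256). On library totals, on FPKM and with the length trend removed, its fold change was above 0. Gdf9 was called lower without GV WT 2 (-0.61, adjusted p = 0.0229) and with voom quality weights (-0.69, adjusted p = 0.0116). Its sign varied with the fit, so no direction is given. Tcl1, a coactivator of AKT (0.43, adjusted p = 0.259), Dppa3, which protects maternal methylation marks (0.22, adjusted p = 0.454), and Bcl2l10, a BCL2 family member of oocytes (0.45, adjusted p = 0.186), did not pass either, and the groups of all these genes overlapped. H1f8 (0.77), Tcl1 (0.89), Dppa3 (0.64) and Bcl2l10 (0.93) were called higher on library totals (adjusted p = 0.00014 to 0.00827). The same genes were called higher on FPKM and with the length trend removed. With voom quality weights H1f8 and Dppa3 lay below 0 (-0.034 and -0.043) and did not pass.

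Of the homeobox genes of the oocyte, Obox2 did not pass (-0.53, adjusted p = 0.234) and Obox1 did (-1.02, adjusted p = 0.0393), while with the length trend removed both were above 0 (1.00 and 0.59). Obox2 was called lower without GV WT 2 (-0.76, adjusted p = 0.00293) and with voom quality weights (-0.90, adjusted p = 0.0023). Obox1 lost its call without any 1 of GV WT 1, 3 and 4 and ovulated WT 1, 2 and 3 (adjusted p = 0.0669 to 0.14), and these genes also share sequence. Bmp15, the partner of Gdf9, fell from 4008 ± 1040.2 CPM in GV to 2373 ± 101 CPM in ovulated oocytes (log2 fold change -0.76, SE 0.28, adjusted p = 0.0288) and lost its call without any 1 of the same 6 libraries (adjusted p = 0.0545 to 0.0940). On library totals and on FPKM its fold change was -0.27 and -0.29 and did not pass (adjusted p = 0.082 and 0.0814). Elobl, an elongin B-like gene that was among the 10 highest in GV oocytes per length, fell from 7286 ± 281 to 498 ± 166 FPKM (-4.30 on CPM).

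**Figure D4:**
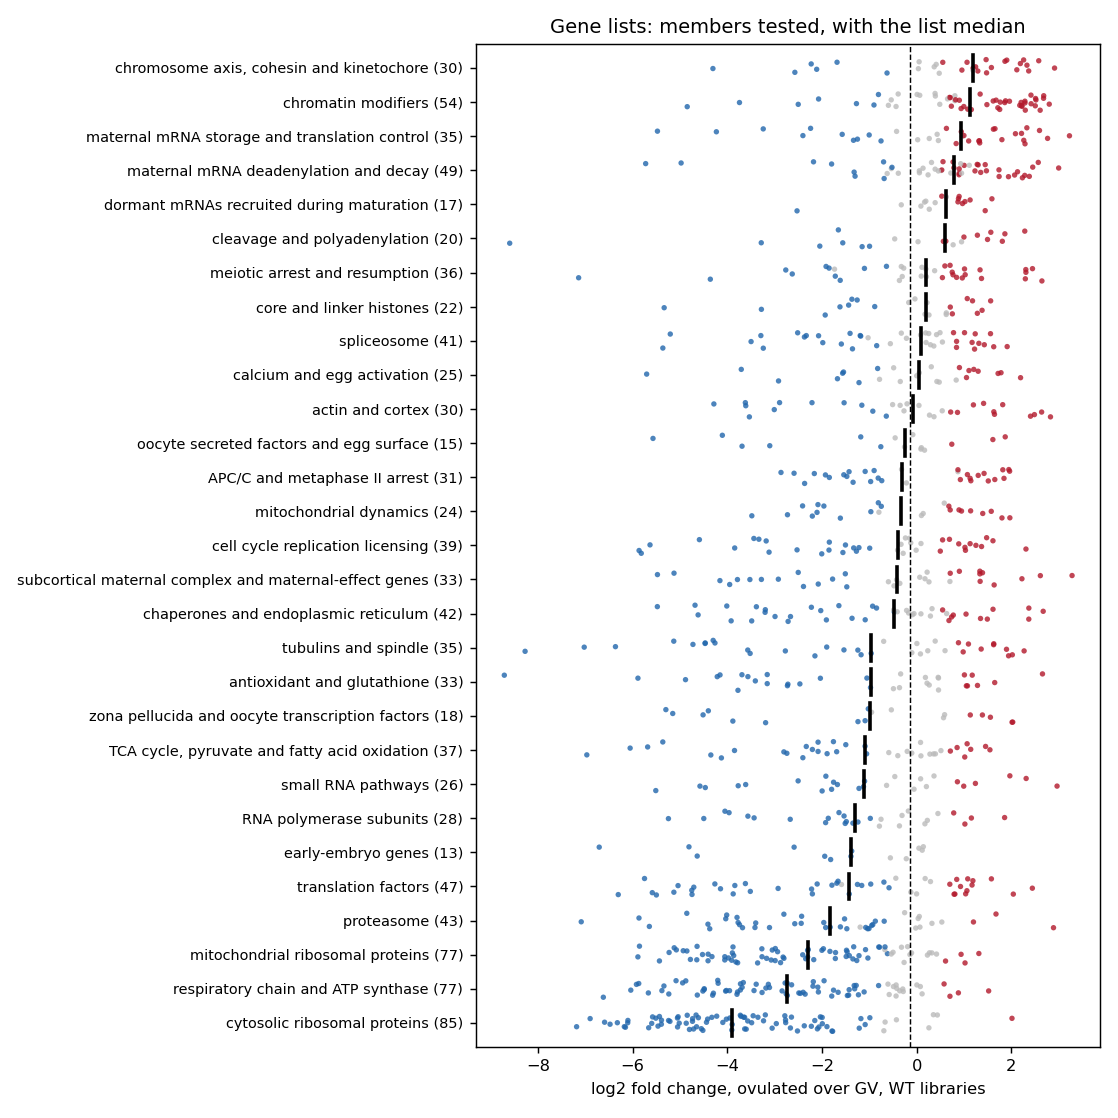
Log2 fold change (ovulated over GV, WT) of the tested members of each gene list (points; red, called higher; blue, called lower; grey, not called), with the list median (black bar), the number of members tested in brackets and the median of all tested genes (dashed line, -0.13). Ribosomal proteins and the respiratory chain lie lowest, and chromatin modifiers and cohesin and kinetochore genes highest.

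The counts of each list are to be read against the 33.2% of all tested genes that rose and the 37.8% that fell. Ribosomal protein and respiratory chain genes fell more often than that: among the 85 tested cytosolic ribosomal proteins 78 fell, 1 rose and the median was -3.90 on the log2 scale, against -0.13 over all tested genes. Rpl7a, a protein of the large subunit (Entrez gene 27176, chromosome 2, 26910685 to 26913312), measured 183, 129.9, 154 and 198 CPM in the GV libraries and 1.89, 1.95 and 1.74 CPM in the ovulated libraries (log2 fold change -6.48, SE 0.27, adjusted p = 7.66e-08). The 1 gene that rose, Rps27l, is a p53-responsive relative of Rps27, and went from 112 ± 6.98 to 454 ± 104 CPM (log2 fold change 2.01, SE 0.21, adjusted p = 9.47e-06).

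Of 47 translation factors, 28 fell and 13 rose (median -1.42). Eif3m, a subunit of the initiation factor that bridges mRNA and the small subunit, fell from 255 ± 26.5 to 9.76 ± 2.39 CPM (-4.71), while Eif5b, which joins the subunits, rose from 75.7 ± 5.48 to 312 ± 76.9 CPM (2.04). Of 77 mitochondrial ribosomal proteins, 61 fell and 4 rose (median -2.30). Mrps22 fell from 341 ± 47.8 to 7.90 ± 0.493 CPM (-5.43), and Mrps14 was one of the 4 that rose, from 72.0 ± 20.6 to 179 ± 56.7 CPM (1.31).

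Of 77 respiratory chain and ATP synthase genes of the nuclear genome, 61 fell and 4 rose (median -2.73). Ndufa9, of complex I, was even within each stage, at 150.0, 137, 146 and 151 CPM in the GV libraries and 1.25, 1.37 and 1.84 CPM in the ovulated libraries (log2 fold change -6.62, SE 0.26, adjusted p = 7.66e-08). Its complex I partner Ndufs7 fell from 57.4 ± 5.26 to 0.869 ± 0.105 CPM (-6.04). Ndufa4, now assigned to cytochrome c oxidase, went the other way, from 81.7 ± 13.1 to 235 ± 30.8 CPM (log2 fold change 1.52, SE 0.20, adjusted p = 4.71e-05).

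Of 37 genes of the TCA cycle, pyruvate and fatty acid oxidation, 20 fell and 7 rose, but with the length trend removed 15 fell and 14 rose (median -0.12). Mdh2, mitochondrial malate dehydrogenase, fell from 166 ± 18.1 to 3.23 ± 0.717 CPM (-5.68), and Acadm, which oxidises medium-chain fatty acids, rose from 33.8 ± 1.35 to 98.8 ± 15.5 CPM (1.55). Among 24 tested genes of mitochondrial dynamics, 11 fell and 9 rose. The fission receptor Fis1 fell (log2 fold change -2.41, SE 0.25, adjusted p = 8.28e-06; -0.49 and adjusted p = 0.0558 with the length trend removed), while the fission GTPase DRP1, encoded by Dnm1l, rose from 88.7 ± 11.2 to 165 ± 11.5 CPM (0.90), as did the outer-membrane fusion protein Mfn1, from 35.5 ± 6.18 to 106 ± 35.02 CPM (1.58). On library totals and on FPKM the higher members outnumbered the lower ones (9 against 7 and 8 against 7), so the list as a whole has no direction.

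Of 43 proteasome genes, 32 fell and 3 rose (median -1.83). Psmb7, a catalytic subunit of the core particle (Entrez gene 19177, chromosome 2, 38588046 to 38643952), measured 346, 308, 346 and 319.9 CPM in the GV libraries and 2.33, 2.83 and 2.11 CPM in the ovulated libraries (log2 fold change -7.08, SE 0.26, adjusted p = 7.66e-08). The core subunit Psmb4 fell from 165 ± 11.8 to 2.83 ± 0.477 CPM (-5.86). Psme4, the PA200 activator that caps the core particle, rose from 62.7 ± 42.9 to 466 ± 112 CPM (2.89), with GV WT 2 the highest GV library.

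Of 42 chaperones and endoplasmic reticulum genes, 21 fell, among them the chaperonin subunit Cct3 (from 342 ± 71.7 to 21.2 ± 1.88 CPM, -4.01), and 11 rose, among them Edem1 of ER-associated degradation (from 12.5 ± 5.30 to 64.9 ± 16.2 CPM, 2.37). Of 33 antioxidant genes, 17 fell and 7 rose. Gpx4, which reduces lipid peroxides, fell from 51.1 ± 3.94 to 0.862 ± 0.170 CPM (-5.89), and Gclc, the rate-limiting enzyme of glutathione synthesis, rose from 2.09 ± 1.21 to 13.4 ± 3.54 CPM (2.66). With the length trend removed, 12 antioxidant genes were higher and 11 lower. The falls of the ribosomal, respiratory, mitochondrial ribosomal and proteasome lists became smaller but kept their sign when the length trend was removed (medians -1.92, -1.02, -0.71 and -0.41). The counts moved more: 8 rose and 61 fell among cytosolic ribosomal proteins, 21 and 42 in the respiratory list, 20 and 40 among mitochondrial ribosomal proteins and 15 and 21 in the proteasome.

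Genes of nuclear RNA synthesis and processing were mixed. Of 28 subunits of RNA polymerases, 16 fell and 4 rose (median -1.29). Polr2i fell from 111 ± 3.64 to 4.93 ± 1.58 CPM (-4.50) and Polr2k from 105 ± 8.65 to 8.89 ± 0.878 CPM (-3.56). Of 41 spliceosome genes, 16 fell (39.0%) and 12 rose (29.3%), about the shares of all tested genes (37.8% and 33.2%), and on library totals 14 fell and 17 rose. Snrpd2 and Snrpg encode proteins of the same Sm ring, yet Snrpd2 fell from 80.9 ± 2.49 to 1.96 ± 1.17 CPM (-5.36) and Snrpg rose from 63.9 ± 6.29 to 198 ± 73.3 CPM (1.63). Of 20 cleavage and polyadenylation genes, 9 rose, among them Cpsf2 (from 30.3 ± 4.39 to 85.6 ± 10.3 CPM, 1.498), and 7 fell, among them Cpsf4 (from 15.7 ± 2.78 to 1.61 ± 0.252 CPM, -3.28).

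Of 35 genes of mRNA storage and translation control, 19 rose (54.3%) and 10 fell (28.6%), against 33.2% and 37.8% of all tested genes (median 0.94). Lsm14a, a P-body protein that represses translation (Entrez gene 67070, chromosome 7, 34344144 to 34390026), measured 103, 181, 124 and 105 CPM in the GV libraries and 765, 932 and 631 CPM in the ovulated libraries (log2 fold change 2.60, SE 0.26, adjusted p = 6.17e-06). Cpeb1, the CPE-binding protein that holds dormant mRNAs in GV oocytes, fell from 928 ± 342 CPM in GV to 197 ± 21.7 CPM in ovulated oocytes (log2 fold change -2.24, SE 0.33, adjusted p = 0.000102), and its relative Cpeb3 rose from 9.26 ± 3.21 to 63.3 ± 20.7 CPM (log2 fold change 2.77, SE 0.32, adjusted p = 1.71e-05).

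Ythdf3, a reader of m6A, rose from 64.8 ± 21.8 to 312 ± 53.3 CPM (2.26). Zar1l, an oocyte RNA-binding protein, fell from 570.4 ± 94.6 to 12.8 ± 1.41 CPM (log2 fold change -5.47, SE 0.27, adjusted p = 9.95e-08), as did Eif4e2, a cap-binding repressor of translation (-4.23), and Patl2, an oocyte translational repressor (-2.40). GV levels of Eif4e2 were nearly equal, at 27.2, 27.4, 27.3 and 27.98 CPM, and ovulated levels were 1.52, 1.95 and 0.905 CPM.

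Of 49 genes of deadenylation and decay, 25 rose (51.0%) and 9 fell (18.4%; median 0.79). Upf1, the helicase of nonsense-mediated decay, measured 16.3, 12.0, 12.2 and 11.1 CPM in the GV libraries and 119, 116 and 75.4 CPM in the ovulated libraries (log2 fold change 3.00, SE 0.24, adjusted p = 1.06e-06). The deadenylase subunits Pan2 (from 65.9 ± 6.66 to 253 ± 7.06 CPM, 1.94) and Cnot6l (from 151 ± 58.8 to 737 ± 200.3 CPM, 2.28) rose, and so did Tut7, which uridylates deadenylated mRNA (from 9.82 ± 1.14 to 46.3 ± 7.55 CPM, 2.24).

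Btg4, the adaptor that brings the CCR4-NOT deadenylase to maternal mRNAs, was abundant at both stages, at 5133, 2975, 4422 and 5164 CPM in the GV libraries and 4967, 4730.2 and 7710.0 CPM in the ovulated libraries. Its groups overlapped and it did not pass (log2 fold change 0.39, SE 0.30, adjusted p = 0.254). On library totals it was called higher (0.86, adjusted p = 0.000585), as it was on FPKM (0.80) and with the length trend removed (1.75). Falls were seen for Cnot10, a subunit of the CCR4-NOT complex (from 46.2 ± 10.47 to 1.47 ± 0.453 CPM, -4.97), and Exosc5, a subunit of the exosome (from 18.5 ± 4.00 to 0.338 ± 0.266 CPM, -5.72).

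Of 17 mRNAs known to be dormant in GV oocytes and recruited for translation during maturation, 9 rose, 1 fell and 7 did not pass (median 0.63). With libraries scaled by their totals 15 rose and 1 fell. Dcp1a, a decapping activator (Entrez gene 75901, chromosome 14, 30479486 to 30527056), measured 529, 434, 514 and 417 CPM in the GV libraries and 1349, 1394 and 1136 CPM in the ovulated libraries (log2 fold change 1.45, SE 0.21, adjusted p = 9.98e-05). Il7, an interleukin, rose from 78.4 ± 7.19 to 236 ± 13.7 CPM (log2 fold change 1.59, SE 0.18, adjusted p = 1.58e-05), and Bub1b, the BUBR1 checkpoint kinase, from 803 ± 124 to 1757 ± 233 CPM (1.13).

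Cdc6, a replication licensing factor whose mRNA is translated during maturation, was the 1 that fell, from 86.2 ± 16.4 to 14.97 ± 3.17 CPM (log2 fold change -2.53, SE 0.25, adjusted p = 5.46e-06). Mos, the kinase upstream of MAPK that holds the second meiotic arrest (-0.32, adjusted p = 0.376), Ccnb1, cyclin B1 (0.19, adjusted p = 0.6), and Plat, tissue plasminogen activator (0.17, adjusted p = 0.698), did not pass. On library totals Ccnb1 (0.66, adjusted p = 0.0133) and Plat (0.69, adjusted p = 0.0130) were called higher. Mos was called lower without GV WT 2 (-0.51, adjusted p = 0.0321) and with voom quality weights (-0.61, adjusted p = 0.0116). With the length trend removed Mos was called higher (1.11, adjusted p = 0.0021). The sign of all 3 changed with the scaling, the filter or 1 library, so they have no direction here.

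Genes of the meiotic cell cycle moved in both directions. Of 36 genes of meiotic arrest and resumption, 16 rose (44.4%) and 10 fell (27.8%). Parts of the cAMP pathway that keeps the GV arrest rose: Prkaca, the catalytic subunit of protein kinase A, from 5.96 ± 1.42 to 29.6 ± 2.49 CPM (2.31), Prkar2a, a regulatory subunit, from 32.8 ± 12.3 to 205 ± 50.7 CPM (2.65), and Pde3a, the oocyte phosphodiesterase that lowers cAMP, from 50.6 ± 22.9 to 250.5 ± 74.8 CPM (2.31).

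Among the 10 that fell were kinases and a phosphatase of the M phases. Cdk1, the catalytic partner of cyclin B, measured 155, 123, 154 and 182 CPM in the GV libraries and 34.1, 31.4 and 62.2 CPM in the ovulated libraries (log2 fold change -1.85, SE 0.28, adjusted p = 0.000113). Aurka, Aurora A, fell from 582 ± 159 to 155 ± 28.1 CPM (-1.91), Mapk3, ERK1, from 282 ± 61.2 to 41.5 ± 17.5 CPM (-2.76), and Cdc25c, a CDK1-activating phosphatase, from 9.72 ± 0.569 to 0.467 ± 0.281 CPM (-4.36). The 3 ovulated values of Cdc25c were 0.437, 0.762 and 0.201 CPM, each under 1 CPM.

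Of 31 genes of the anaphase-promoting complex (APC/C) and of the second meiotic arrest, 13 rose, 15 fell and 3 did not pass. On library totals 14 rose and 10 fell. Subunits of the same complex parted: Anapc10 rose from 40.2 ± 4.48 to 142 ± 30.4 CPM (1.82) and Anapc15 fell from 132 ± 3.54 to 18.1 ± 5.33 CPM (-2.86). Securin, described above, rose, as did its target separase, Espl1, from 32.2 ± 1.87 to 116 ± 23.7 CPM (1.85), and Sgo2a, the shugoshin that protects centromeric cohesin, from 31.7 ± 8.34 to 122 ± 29.8 CPM (1.95). Ttk, the MPS1 checkpoint kinase, fell from 247 ± 36.8 to 41.0 ± 7.77 CPM (-2.59).

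Of 30 genes of the chromosome axis, cohesin and kinetochore, 18 rose and 6 fell (median 1.19). With the length trend removed 19 rose and 3 fell (median 0.91). The list median lay 1.32 above that of all genes in the main fit and 0.64 above it with the length trend removed. Sycp2 (from 31.2 ± 10.2 to 157 ± 29.1 CPM, 2.33) and Sycp3 (from 9.22 ± 3.71 to 55.2 ± 14.2 CPM, 2.58), lateral element proteins of the synaptonemal complex of early prophase, rose, and so did the kinetochore motor Cenpe (from 161 ± 21.5 to 605 ± 139.6 CPM, 1.90). The kinetochore protein Spc25 fell from 201 ± 11.8 to 43.0 ± 6.12 CPM (-2.23), and Birc5, survivin, a subunit of the chromosomal passenger complex, from 1027 ± 209 to 173 ± 12.9 CPM (-2.57).

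Of 35 tubulin and spindle genes, 18 fell and 10 rose (median -0.96). Tuba4a, an alpha-tubulin, measured 702, 198, 479 and 694 CPM in the GV libraries and 3.58, 5.57 and 2.78 CPM in the ovulated libraries (log2 fold change -7.02, SE 0.54, adjusted p = 8.93e-07). Tuba1b, another alpha-tubulin, fell from 177 ± 76.1 to 7.98 ± 2.07 CPM (-4.47), and Tacc3, a spindle pole protein, from 2449 ± 927 to 111 ± 13.3 CPM (-4.47); tubulin genes share sequence, so reads could be split among them. Numa1, which focuses spindle poles (from 15.5 ± 1.83 to 48.0 ± 1.98 CPM, 1.63), and Cep192 of the microtubule-organising centres (from 16.6 ± 11.1 to 80.2 ± 8.15 CPM, 2.27) rose.

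Of 30 actin and cortex genes, 11 rose and 11 fell (36.7% each, near the shares of all tested genes), and on library totals 14 rose and 8 fell. The 2 isoforms of 1 Arp2/3 subunit went opposite ways: Arpc1a fell, with 18.5, 16.0, 21.1 and 26.3 CPM in the GV libraries and 1.63, 0.853 and 0.637 CPM in the ovulated libraries (log2 fold change -4.28, SE 0.38, adjusted p = 2.56e-06), and Arpc1b rose, with 24.5, 11.1, 21.6 and 25.1 CPM in the GV libraries and 145, 99.5 and 140.1 CPM in the ovulated libraries (log2 fold change 2.64, SE 0.29, adjusted p = 1.10e-05). For neither gene did the stages overlap. Wasl, an activator of Arp2/3, rose from 48.5 ± 15.3 to 272 ± 69.5 CPM (2.49), and Actg1, cytoplasmic actin, fell from 228 ± 88.9 to 19.7 ± 1.05 CPM (-3.53).

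Genes of calcium handling included Atp2a2, the SERCA pump of the ER, which rose from 131 ± 45.8 to 449.9 ± 147 CPM (1.78), Vdac3, a channel of the mitochondrial outer membrane, which fell from 502 ± 88.4 to 38.5 ± 1.92 CPM (-3.70), and Orai1, a plasma membrane calcium channel, which fell from 19.7 ± 5.30 to 0.366 ± 0.330 CPM (-5.70). Of the 25 tested genes of this list 8 rose and 8 fell (32.0% each, near the shares of all tested genes), and on library totals 9 rose and 7 fell.

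All 3 zona pellucida genes fell: Zp1 from 1836 ± 614 to 87.0 ± 21.3 CPM (-4.40), Zp2 from 4110.2 ± 1255 to 116 ± 21.7 CPM (-5.15) and Zp3 from 4113 ± 1077 to 180.4 ± 34.7 CPM (-4.51). Figla, the transcription factor that drives them, measured 22.2, 27.9, 29.5 and 23.9 CPM in the GV libraries and 0.787, 0.762 and 0.402 CPM in the ovulated libraries (log2 fold change -5.30, SE 0.33, adjusted p = 2.29e-07). Of the 18 tested zona and oocyte transcription factor genes 9 fell and 5 rose, and on FPKM 6 fell and 7 rose. Among the risers were Foxo3, the factor that keeps primordial follicles quiescent (from 119 ± 33.1 to 483 ± 139.8 CPM, 2.02), and Gtf2a1, a subunit of a general transcription factor (from 267 ± 16.2 to 699 ± 125 CPM, 1.39).

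Of 15 secreted and egg surface genes, 6 fell and 3 rose. Genes of 2 egg surface proteins that sperm fusion needs fell: Cd9, a tetraspanin, measured 139.7, 149, 129.9 and 181 CPM in the GV libraries and 19.11, 17.0 and 16.2 CPM in the ovulated libraries (log2 fold change -3.10, SE 0.22, adjusted p = 4.52e-07), and Izumo1r, JUNO, the receptor of sperm IZUMO1, fell from 332 ± 90.4 to 19.3 ± 8.58 CPM (-4.10). Fgf8, a signal to cumulus cells, fell from 51.8 ± 21.3 to 1.08 ± 0.332 CPM (-5.57), and Kit, the receptor of Kit ligand, rose from 85.3 ± 33.7 to 261 ± 80.0 CPM (1.61). On library totals 5 genes of this list were higher and 5 lower.

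The core genes of the subcortical maternal complex, which the embryo needs for its first cleavages, fell: Padi6 from 5529 ± 2418 to 158 ± 11.2 CPM (log2 fold change -5.12, SE 0.46, adjusted p = 2.60e-06), Ooep from 3544 ± 1397 to 257 ± 30.5 CPM (-3.78), Tle6 from 2861 ± 1451 to 185 ± 44.5 CPM (-3.95), Khdc3 from 304 ± 166 to 17.0 ± 8.87 CPM (-4.16) and Nlrp5, also called MATER, from 1348 ± 196 to 485 ± 136 CPM (-1.47). For all 5 the lowest GV library, GV WT 2 in each case, still lay above the highest ovulated one. Over the 33 tested maternal-effect genes 14 fell (42.4%) and 10 rose (30.3%), near the shares of all tested genes, and on library totals 14 fell and 14 rose. Npm2, the histone chaperone of the oocyte nucleus, fell from 1527 ± 543 to 157 ± 5.55 CPM (-3.28).

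Among the 10 that rose were genes of proteins that act on chromatin after fertilisation. Tet3, which oxidises 5-methylcytosine in the zygote, measured 238, 296, 257 and 207 CPM in the GV libraries and 1270.0, 1418 and 810.5 CPM in the ovulated libraries (log2 fold change 2.23, SE 0.25, adjusted p = 1.51e-05). Trim28, which keeps imprints silenced, rose from 37.6 ± 16.6 to 230.3 ± 49.4 CPM (log2 fold change 2.61, SE 0.32, adjusted p = 2.42e-05).

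Of 54 chromatin modifiers, 35 rose (64.8%) and 7 fell (13.0%; median 1.12). Kmt2d, an H3K4 methyltransferase, rose from 44.2 ± 7.78 to 149 ± 10.8 CPM (1.76), and Kmt5a, the H4K20 monomethylase, from 17.7 ± 1.98 to 65.1 ± 10.9 CPM (1.88). Suv39h1, an H3K9 methyltransferase, fell from 157 ± 30.2 to 5.47 ± 1.75 CPM (log2 fold change -4.85, SE 0.31, adjusted p = 2.91e-07). Of 22 core and linker histones and histone chaperones, 7 rose and 8 fell (31.8% and 36.4%, near the shares of all tested genes), and on library totals 11 rose and 6 fell. The chaperone Asf1b rose from 305 ± 23.2 to 691 ± 191 CPM (1.18) and Chaf1b, of the CAF-1 chaperone, fell from 24.97 ± 1.73 to 0.620 ± 0.414 CPM (-5.33).

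Of 26 genes of small RNA pathways, 14 fell and 6 rose (median -1.11). Gtsf1, a cofactor of PIWI proteins, fell from 474 ± 28.8 to 19.9 ± 1.28 CPM (log2 fold change -4.58, SE 0.22, adjusted p = 9.95e-08), and Tarbp2, the partner of Dicer, from 76.9 ± 22.8 to 1.68 ± 0.515 CPM (-5.51). Piwil1 rose from 4.78 ± 0.347 to 23.8 ± 5.55 CPM (2.31). Of 39 genes of replication licensing and S phase, 19 fell and 12 rose. The subunits of replication protein A parted: Rpa3 rose from 53.6 ± 4.97 to 266 ± 71.4 CPM (2.31), and Rpa2 fell from 147 ± 26.9 to 2.52 ± 0.876 CPM (-5.86). Tyms, thymidylate synthase, fell from 195 ± 42.4 to 3.93 ± 1.00 CPM (-5.63).

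Mean GV levels of the 13 tested genes on the early-embryo list ran from 0.424 CPM (Zfp42) to 874 CPM (Klf17), so some were abundant before fertilisation. Of these 13 genes, 8 fell and the other 5 did not pass. On library totals 1 was called higher. Arg2, arginase 2, measured 994, 620.5, 857 and 925 CPM in the GV libraries and 7.63, 5.82 and 11.0 CPM in the ovulated libraries (log2 fold change -6.71, SE 0.36, adjusted p = 1.17e-07). Dppa4 fell from 10.9 ± 1.60 to 0.436 ± 0.173 CPM (-4.63).

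Features of the transcript that took no part in the choice of genes went with the fold change. Transcript length, as the ratio of deposited count to FPKM implies it, was known for 10076 tested genes that also have an annotated 3′ UTR of at least 30 bases. Median log2 fold changes over 4 equal classes of length, from shortest to longest, were -1.62, -0.55, 0.25 and 1.16 (Spearman rho 0.46 across genes, as a description; genes are not independent). In the shortest class, up to 1438 bases, 62.0% of genes fell and 17.1% rose. In the longest, from 3804 bases, 14.6% fell and 64.0% rose.

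By library, the median log2 level of the longest minus the shortest class was -0.52, 0.13, -0.28 and -0.53 in the 4 GV libraries and 2.53, 2.67 and 2.03 in the 3 ovulated ones. The 7 libraries thus fall into 2 separate ranges, with GV WT 2 the GV library nearest to the ovulated ones. Protein length in place of transcript length gave a smaller difference between the outer classes, 1.64 against 2.78. 

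A CPE in the last 100 bases of the 3′ UTR, a feature chosen after the fold changes were seen, was found in 2329 of 11873 tested genes with an annotated 3′ UTR (19.6%). Of genes with a CPE 51.7% rose and 20.1% fell (median 0.79). Of the 9544 without one 29.4% rose and 41.8% fell (median -0.38). The median was 0.74 with 1 CPE, 0.97 with 2 and 1.30 with 3 or more (39 genes).

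The 2 spellings gave like medians, 0.81 for TTTTAT and 0.84 for TTTTAAT. Other sites went with the fold change too. Genes with TTTTT but no CPE had a median of 0.35, and genes with neither had -0.66. The hexamer, present in 9658 genes, went with a median of 0.05, against -0.73 without it. A match is a run of letters, not a site shown to be used.

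The difference by CPE was seen in each class of transcript length: the medians with and without a CPE were 0.20 and -1.91 in the shortest class and 1.51 and 1.06 in the longest. By GC content of the 3′ UTR they were 1.02 and 0.55 in the lowest of 4 classes and 0.36 and -1.40 in the highest. In the GV libraries genes with a CPE lay above those without by 0.34 to 0.42 on the log2 scale, and in the ovulated libraries by 1.497 to 1.532. In their last 100 bases Wtap and Dcp1a hold 2 CPEs each, of which the sequences above show 1, and Lsm14a holds 1.

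Not all genes with a CPE rose. Of the 37 genes described here that hold a CPE, 22 rose, 8 fell and 7 did not pass. The described genes were named largely by their calls in both directions, so this split does not show how often a CPE went with a rise. The shares over all genes with a CPE are given above. Those that fell steeply include Ppil3 (-7.65), Snx15 (-7.54), Tyms (-5.63), Spopl (-5.16), Eif3m (-4.71) and Polr2k (-3.56), each with 1 CPE. Gdf9 and Btg4 hold 1 each and did not pass the test, and Pttg1, with no CPE in the annotated 3′ UTR, rose.

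**Figure D5:**
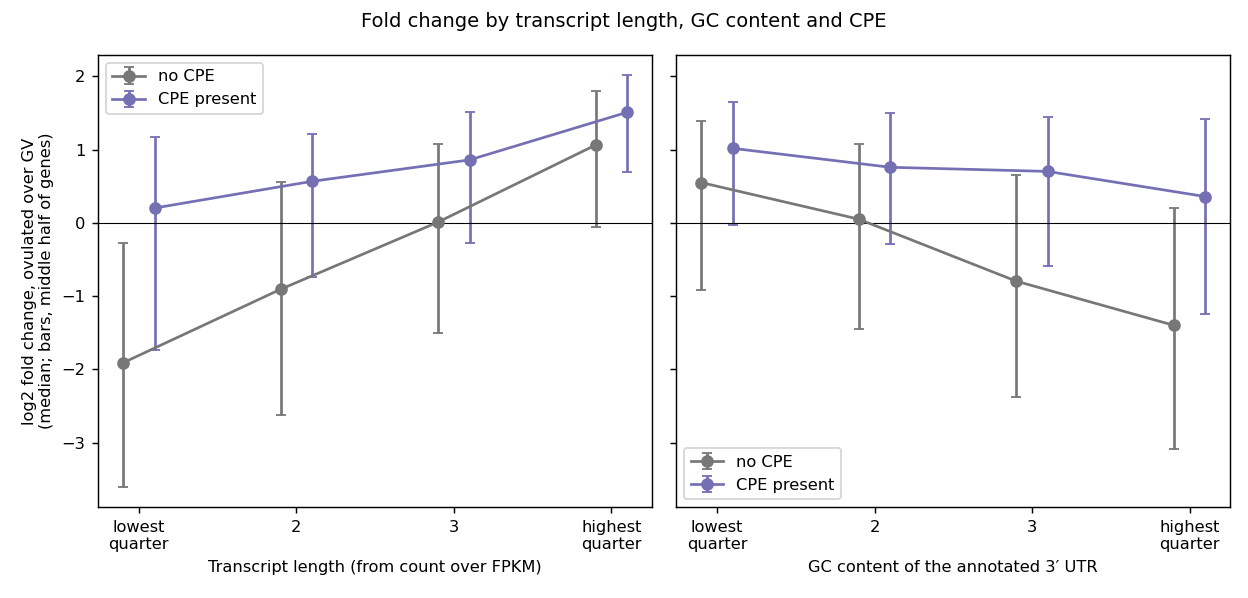
Median log2 fold change (ovulated over GV, WT; bars, interquartile range) by class of transcript length, 4 equal classes, (left) and of the GC content of the 3′ UTR (right), for genes with (purple) and without (grey) a CPE in the last 100 bases. The purple points lie above the grey ones in every class, most in the shortest (0.20 against -1.91) and least in the longest transcripts (1.51 against 1.06).

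The gene lists with the lowest medians hold short transcripts and few CPEs. Median lengths were 499 bases for cytosolic ribosomal proteins and 508 for the respiratory chain, against 2405 over all genes, and 12.0% and 6.49% of their members held a CPE. Chromatin modifiers had a median length of 4391 bases and 32.1% held a CPE. In 22 of the 28 lists with such members, genes with a CPE had the higher median. For cytosolic ribosomal proteins the medians with and without a CPE were -2.40 and -4.09. The other 6 lists went the other way: translation factors (-4.73 with and -1.16 without), meiotic arrest and resumption (-0.27 and 0.38), cleavage and polyadenylation (0.03 and 0.77), chromatin modifiers (1.00 and 1.25), the chromosome axis, cohesin and kinetochore (1.01 and 1.19) and histones (-0.50 and 0.20). Most of these medians rest on few genes, such as 4 translation factors with a CPE.

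Whether the course differed between genotypes was tested with the 7 CKO libraries in 1 fit. The change differed in 430 of 13199 genes (3.26%), with 419 (3.17%) more positive and 11 (0.0833%) more negative in CKO oocytes. Cytosolic ribosomal proteins held 32 of them (of 85 tested) and the respiratory chain 26 (of 77), all more positive in CKO. Their median log2 fold changes were -3.90 and -2.73 in WT and -2.39 and -1.24 in CKO oocytes. Figla fell by 5.30 on the log2 scale in WT and by 1.34 in CKO oocytes (interaction 3.95, adjusted p = 0.000736).

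Psmb7 fell by 7.08 in WT and by 3.25 in CKO oocytes (interaction 3.83, adjusted p = 0.00099). For Wtap and Tet3 the interaction did not pass (adjusted p = 0.932 and 0.787). Figla and Psmb7 were named from their change in WT, so their interaction is not independent of that choice. The count rests on single libraries: more positive genes numbered 905 without ovulated CKO 1 and 126 without ovulated CKO 2. They numbered 234, 226 and 225 without GV WT 1, 3 and 4, and 262 and 215 without ovulated WT 1 and 2.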

How the data were processed

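Libraries of WT and CKO mouse oocytes at the GV and ovulated stages were sequenced after SMART-SeqII amplification, per the labels' protocols. The authors deposited 1 table of estimated counts and 1 of FPKM (reads scaled to transcript length and library total) for each stage, per the file headers. The genome build was mm10, per the submitters' processing notes, and the sources used here name no aligner and no counter. Of the deposited estimated counts above 0 in WT libraries, 17.2% to 18.6% were not whole and were rounded. Depth was 26575593 to 28847424 estimated reads per WT library. Counts of replicates of a group differed by more than sampling noise (chi-square per degree of freedom 20.2 or more), so each library counted as 1 replicate.

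Genes were joined on gene identifier and tested with edgeR 4.0.16 in R 4.3.3 (filterByExpr, TMM scaling, robust quasi-likelihood test, no covariate) on the WT libraries, with Benjamini-Hochberg adjustment over all tested genes. A gene was called at an adjusted p under 0.05. Every adjusted p not credited otherwise is from this test. Values are TMM-scaled CPM, as mean ± SD over 4 GV and 3 ovulated libraries, and levels between genes were compared on the deposited FPKM. The difference between genotypes was an interaction term over all 14 libraries. Counts were simulated with the spread of these libraries and a log2 change of 1 or 2, up or down at random, in a small part of the genes. For the WT course 30.3% and 87.2% of changed genes were recovered, with 4.15% false calls. For the interaction these were 2.80%, 45.1% and 3.82%. In the real WT course 71% of genes were called, mostly with larger falls than rises. The simulated rates therefore do not describe that course or the effect of its scaling. The "length trend removed" fit took the trend of each library with transcript length out as an offset. Marker sums were compared by an exact permutation test over libraries. DESeq2 1.42.0, limma 3.58.1 (voom and FPKM), other scalings, filters and left-out libraries were alternatives.

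The genes and lists were chosen with earlier results of these data known. Genes were named by a rule: Mff; the 12 largest rises and falls among called genes without overlap and at least 5 CPM in 1 group; the 10 largest gains and losses of CPM; the 10 highest FPKM at each stage; up to 3 called members of each list and direction with the smallest p; and the 3 most abundant members of each marker list. Of the 226 genes it gave, those of 4 or fewer reads after ovulation have no fold, and others were left out for length or are not reported here. Pde3a, Cdk1, Ccnb1, Mos, Zp1, Nlrp5, Ooep, Tle6, Khdc3, Cpeb1, Btg4, Cnot6l and Plat fall outside it and were chosen after their values were seen. The CPE search was added after the fold changes were seen and used 1 GENCODE M21 transcript per gene with a 3′ UTR of at least 30 bases. Of 18507 genes 18456 matched RefSeq (GRCm38.p6). Listed genes that neither table holds are not analysed here.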

Additional observations from a re-analysis of the deposited data

Results flagged for a closer look

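For 11 of the 161 genes described, 1 of the 4 GV WT libraries lay far from the other 3 by Dixon's test at 95%, which chance alone gives in about 1 of 20 groups. In 10 of these the library was GV WT 2. It measured 1.73 CPM for Pim1, 3.87 for Rpia, 1.06 for Zxdb, 347 for Upp1, 8.08 for Prkaca, 33.1 for Cep192, 71.3 for Wasl, 12.5 for Exosc5, 215.6 for Eif3m and 3.90 for Gclc. For Upp1, Exosc5 and Eif3m, which fell after ovulation, it was the lowest GV library, and for the 7 that rose the highest. Cyp19a1, the aromatase of granulosa cells, measured 55.3 CPM in GV WT 3.

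For 28 of the 161 genes the change from GV to ovulated oocytes differed between WT and CKO by the interaction term, against 430 of all 13199 tested genes (3.26%). Many were named for a steep fall in WT, so the choice of genes and the test share the WT libraries. All 28 differences were positive, which means a smaller fall in CKO oocytes. Of the 430 over all genes 419 were positive too. On the log2 scale the difference was 5.26 for Snx15, 3.95 for Figla, 3.85 for Khdc3, 3.84 for Tbc1d25, 3.83 for Psmb7 and Mroh3, 3.71 for Agpat2, 3.18 for Arpc1a and 3.06 for Psmb4. It was 2.74 for Tarbp2, 2.70 for Upp1, 2.67 for Cpsf4l, 2.57 for Arg2, 2.56 for Rpl7a, 2.49 for Ppil3 and Ndufs7, 2.47 for Zp2, 2.41 for Gpx4, 2.25 for Rpa2, 2.24 for Ndufa9, 2.19 for Elobl and 2.11 for Fis1. It was 1.95 for Snrpd2, 1.90 for Actg1, 1.73 for Cct3, 1.71 for Birc5 and 1.60 for Anapc15 and Zp3.

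Genes listed in 1 table only could not enter the comparison. Of these, 27 in the GV table and 2 in the ovulated table had a mean of 10 or more reads in WT libraries.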

How the results depend on the processing

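Main counts were 4130 genes higher and 4694 lower. They were 3736 to 4349 and 4354 to 4714 when each library was left out in turn. Against a log2 limit of 1, 2073 were higher. With a mean of at least 10 CPM, which leaves 6595 genes, 2594 were higher and 2611 lower. With the length trend removed 4401 genes were higher and 3449 lower, and 540 calls had the opposite sign. Correlations of same-numbered libraries between the stages were 0.0002, 0.163 and 0.0333, against -0.142 to 0.111 for libraries of unlike number. These weak values cannot tell whether the replicate numbers pair the stages. With a replicate block 3854 genes were higher and 4495 lower. In that fit Bmp15 (-0.62, adjusted p = 0.137), Obox1 (-0.72, adjusted p = 0.148) and Cyp19a1 (0.54, adjusted p = 0.0543) lost their calls. The interaction counts, 419 more positive and 11 more negative in CKO, were 850 and 39 with DESeq2, 122 and 1 with the replicate block, and 126 to 905 and 3 to 101 with 1 library left out. The cause was not tested.

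The longest minus the shortest class of length, 2.78, was 2.29 on log2(FPKM + 1), 1.64 by protein length and 2.66 to 2.98 with 1 library left out. The difference by CPE, 1.18, was 0.966 with the length trend removed, 1.02 on log2(FPKM + 1), 0.940 at 10 CPM or more, 0.991, 1.25 and 1.96 with the last 50 or 200 bases or the whole 3′ UTR, and 1.15 to 1.22 with 1 library left out. These CPE windows were chosen after seeing the data. The ratio of summed markers, ovulated over GV, was 0.708 for oocytes (0.506 on TMM-scaled CPM, exact permutation p = 0.0571). With 1 library left out it was 0.667 to 0.744 for oocytes, 2.13 to 2.41 for granulosa and cumulus, 3.33 to 4.40 for blood, immune and endothelial cells and 0.427 to 0.590 for theca and stroma.

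Of the 161 genes, 135 kept their direction and their side of the threshold under every alternative run. Of 3367 values, 44 lost the call, 46 gained it and 21 changed sign, all 21 in the 9 genes given here. With the length trend removed, the log2 fold changes were 0.42 for Mff, 1.00 for Obox2, 0.70 for Gdf9, 0.59 for Obox1 and 1.11 for Mos. On library totals they were 0.046 for Gdf9 and 0.18 for Mos. On FPKM with a pseudocount of 0.1, of 1 and of 1 without a filter they were 0.014 for Gdf9 and 0.14 for Mos. With voom quality weights they were -0.034 for H1f8, -0.043 for Dppa3, -0.18 for Ccnb1 and -0.12 for Plat, and at 10 CPM or more -0.018 for Ccnb1 and -0.037 for Plat. With 1 library left out, Ccnb1 ranged from -0.10 (without ovulated WT 3) to 0.37 and Plat from -0.047 (without GV WT 2) to 0.33. Low reads limit the folds of genes that were under 1 CPM after ovulation.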
